A study of Nicotiana tabacum with 18 samples.

Results

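GDH94 and GDH88 are tobacco (Nicotiana tabacum) lines that served as the second-named parents of a pair of crosses, Va116×GDH94 and K326×GDH88. Their leaf transcriptomes were compared here with each other, as 3 libraries of GDH94 against 3 libraries of GDH88, out of 18 libraries of 6 genotypes in all. The other 12 libraries, 3 each of the hybrids Va116×GDH94 and K326×GDH88 and of the cultivars Va116 and K326, were used only to place the difference between the lines. All plants were sampled 45 days after transplanting in the field, the labels name no treatment, and each library held the mixed leaves of several plants of a plot. The labels name the lines but give no pedigree, and each genotype is known here from 1 sampling day and 1 tissue.

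The members were all genes with a mean of at least 1 FPKM (fragments per kilobase of transcript, scaled to the mapped fragments of the library) in either line, which were 35554 of the 69500 genes in the table. Of these, 33564 reached that mean in both lines, 1307 only in GDH94 and 683 only in GDH88. The highest mean left out was 0.997 and the lowest taken was 1.0 FPKM. The FPKM of a library summed to 910305 to 914581 in GDH94 and 941930 to 946270 in GDH88, and 43947 to 44138 genes were above 0 in GDH94 libraries, against 43388 to 43682 in GDH88 libraries. Depth per gene is unknown for FPKM. From the smallest steps of rarely detected genes, the relative depth of the 6 libraries was put at 1.0 to 1.16. Each comparison with GDH88 replicate 1 rested on only 27 to 34 genes. The study reported mapped reads for the GDH94 libraries but not for GDH88, and they were not used here. Replicates were close, with a median SD of log2(FPKM + 1) of 0.08 in both lines. The study worked with replicated plots, but the labels tie no library to a plot, so p values measure only the spread between these samples, which may be technical.

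Tobacco is an allotetraploid, so most of its genes exist as pairs of close copies, and the value of a copy depends on how reads that match both were divided. Parent lines of a crop can differ in the level of a gene's transcript, in whether the gene or a transcribed copy of it is there at all, and in the state of whole programmes such as pathogen defence. The best known leaf defence programme of tobacco is the set of pathogenesis-related (PR) proteins, which includes CAP proteins, β-glucanases, chitinases, thaumatin-like proteins and proteinase inhibitors. Many of them are induced by salicylic acid and act on the cell walls of fungi or the digestive enzymes of insects. Polyphenol oxidases, which oxidise phenols in wounded tissue, peroxidases and WRKY transcription factors are regulated with such programmes in many plants.

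GDH94 differed from GDH88 by 988 DEGs at a Benjamini-Hochberg adjusted p value under 0.05 in limma and a log2 fold change of at least 1 in either direction, which is 2.78% of the genes tested. Of these, 609 (1.71% of the genes tested) were higher and 379 (1.07%) lower in GDH94. The lower DEGs went further: 128 of 379 (33.8%) were lower by a log2 fold change of 2 or more, whereas 84 of 609 (13.8%) were higher by that much. The libraries of the lines did not overlap in 601 of the higher and 377 of the lower DEGs. Libraries of GDH94 lay all above those of GDH88 in 40.8% of all genes tested and all below in 13.8%. At an adjusted p under 0.05 without the fold limit, 32.0% of all genes tested were higher in GDH94 and 10.8% lower. Of the DEGs, 236 of the higher and 193 of the lower passed the filter on low values only through the line in which they were high, and such genes had to differ.

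The excess of higher DEGs depended on the scaling. As deposited, the 35554 genes had a median log2 fold change of 0.12, and 70.2% of the genes had a positive one. After median-ratio scaling this median was 0.00, and 465 DEGs were higher and 464 lower, so that 50.1% were higher in place of 61.6%. After quantile normalization 47.6% were higher, and 64.9% after scaling all libraries to the same total. All fold changes given here are on the deposited scale and include the shift of 0.12.

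**Figure D1:**
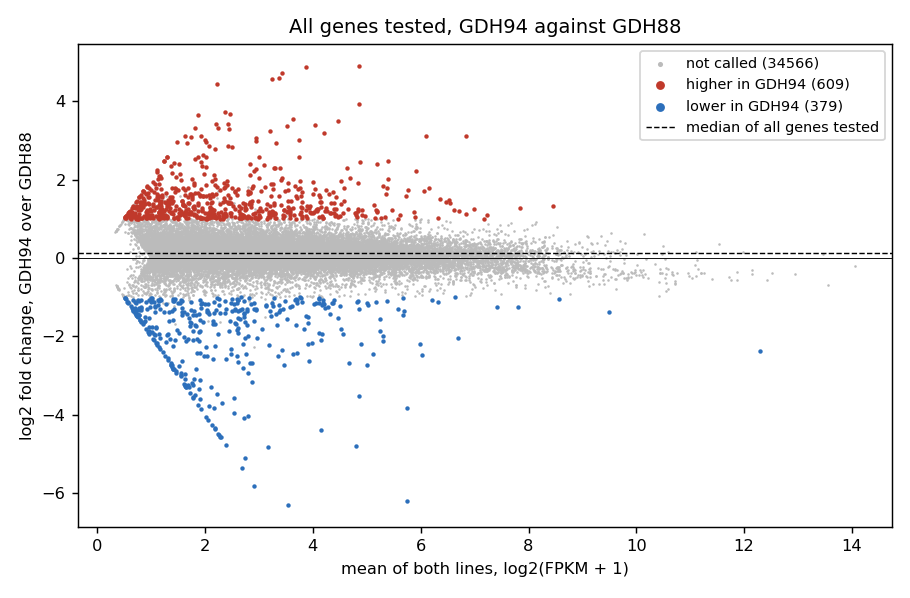
The log2 fold change of GDH94 over GDH88 is plotted against the mean log2(FPKM + 1) of both lines, with 1 point for each of the 35554 genes tested. The 609 higher DEGs are red, the 379 lower DEGs blue, and the dashed line is the median of all genes, 0.12. The lower DEGs reach a log2 fold change of −6.29 and the higher ones 4.90.

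Descriptions of genes came only from lists of the study, which were drawn up on the hybrid Va116×GDH94 and its parents, and 248 of the 988 DEGs had one that names a function or domain. Described genes are therefore not a fair sample of the genome. Of 2031 described genes, 1881 were on the list of the hybrid against Va116. A gap between Va116×GDH94 and Va116 in such a gene follows from how the list was drawn up. Of the 1453 tested genes on the list of the hybrid against Va116, 171 (11.8%) were higher and 100 (6.88%) lower in GDH94 than in GDH88, and their median log2 fold change was 0.26. The gene groups below are to be read against these shares and this median, not only against those of all genes.

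PR-type defence genes were the list with the highest median log2 fold change of the 34 lists examined. Of 29 members tested, 22 were higher in GDH94, 0 were lower, and 7 did not pass. Their median log2 fold change was 2.04, beside 0.26 over all genes with a description on the same list and 0.12 over all genes tested. The summed FPKM of the 29 genes was 769 to 785 in GDH94 libraries and 130 to 136 in GDH88 libraries, with no overlap. The libraries of GDH94 lay all above those of GDH88 in 27 of the 29, beside 40.8% of all genes tested. The count of 22 ran from 21 to 23 under the 3 scalings and from 22 to 25 with a library left out.

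All 6 CAP proteins tested were higher in GDH94, by log2 fold changes of 2.03 to 4.86. These are relatives of the acidic PR protein that is widely used as a marker of salicylic acid signalling in tobacco leaves. Nitab4.5_0003771g0010 had 79.3, 78.0 and 76.4 FPKM in GDH94, against 2.76, 1.27 and 1.34 FPKM in GDH88. The GDH94 values lay within a few percent of each other and far above all of GDH88, a log2 fold change of 4.86 ± 0.18 (SE, with an adjusted p of 1.54e-06 in limma). A second CAP gene, Nitab4.5_0004861g0030, had 15.7, 17.9 and 15.8 FPKM in GDH94 and 0.87, 0.59 and 0.47 FPKM in GDH88. The most abundant of them in GDH88, Nitab4.5_0005400g0020, had 85.6, 81.7 and 82.6 FPKM in GDH94 and 15.4, 16.1 and 13.5 FPKM in GDH88. In this gene the difference was the smaller log2 fold change of 2.40 ± 0.063 (SE).

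Of 8 family 17 glycoside hydrolases, the family of plant β-glucanases that cut the glucans of fungal walls and of callose, 7 were higher in GDH94. Nitab4.5_0000180g0140 had 53.4, 56.8 and 53.9 FPKM in GDH94, against 1.24, 1.17 and 0.9 FPKM in GDH88. Its log2 fold change was 4.73 ± 0.072 (SE, with an adjusted p of 2.88e-08 in limma). Nitab4.5_0002218g0010 followed with a log2 fold change of 3.67 and Nitab4.5_0008527g0010 with 3.25. The member that did not pass the fold limit, Nitab4.5_0017412g0010, had 2.18, 2.36 and 1.99 FPKM in GDH94 and 1.24, 1.26 and 1.17 FPKM in GDH88.

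The 3 chitin-binding proteins and family 19 chitinases, which bind or cut fungal chitin, were among the most abundant members and all were higher in GDH94. Nitab4.5_0005898g0010 had 127, 126 and 132 FPKM in GDH94 and 29.4, 25.7 and 25.9 FPKM in GDH88. Nitab4.5_0001592g0030, whose description adds the Barwin domain, had 98.6, 97.0 and 97.0 FPKM in GDH94 and 17.1, 16.8 and 16.3 FPKM in GDH88. These genes were thus well expressed in both lines, and GDH94 exceeded GDH88 by log2 fold changes of 1.63 to 2.47.

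Thaumatin-like proteins were divided, with 4 of 6 higher in GDH94. Nitab4.5_0003604g0050 had 30.4, 33.7 and 30.7 FPKM in GDH94 and 4.90, 4.29 and 4.35 FPKM in GDH88. Nitab4.5_0001239g0110 had 1.11, 1.70 and 1.42 FPKM in GDH94, against 1.58, 2.11 and 1.86 FPKM in GDH88, and its libraries overlapped. Of the 3 proteinase inhibitors, 2 were higher, and the potato type I inhibitor Nitab4.5_0003154g0030, of a family that blocks digestive serine proteases, had 20.3, 18.98 and 14.6 FPKM in GDH94 and 0.7, 0.0 and 0.7 FPKM in GDH88. The 3 Bet v I or major latex proteins, small ligand-binding proteins, had log2 fold changes of 0.82 to 0.95 and did not reach the limit.

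**Figure D2:**
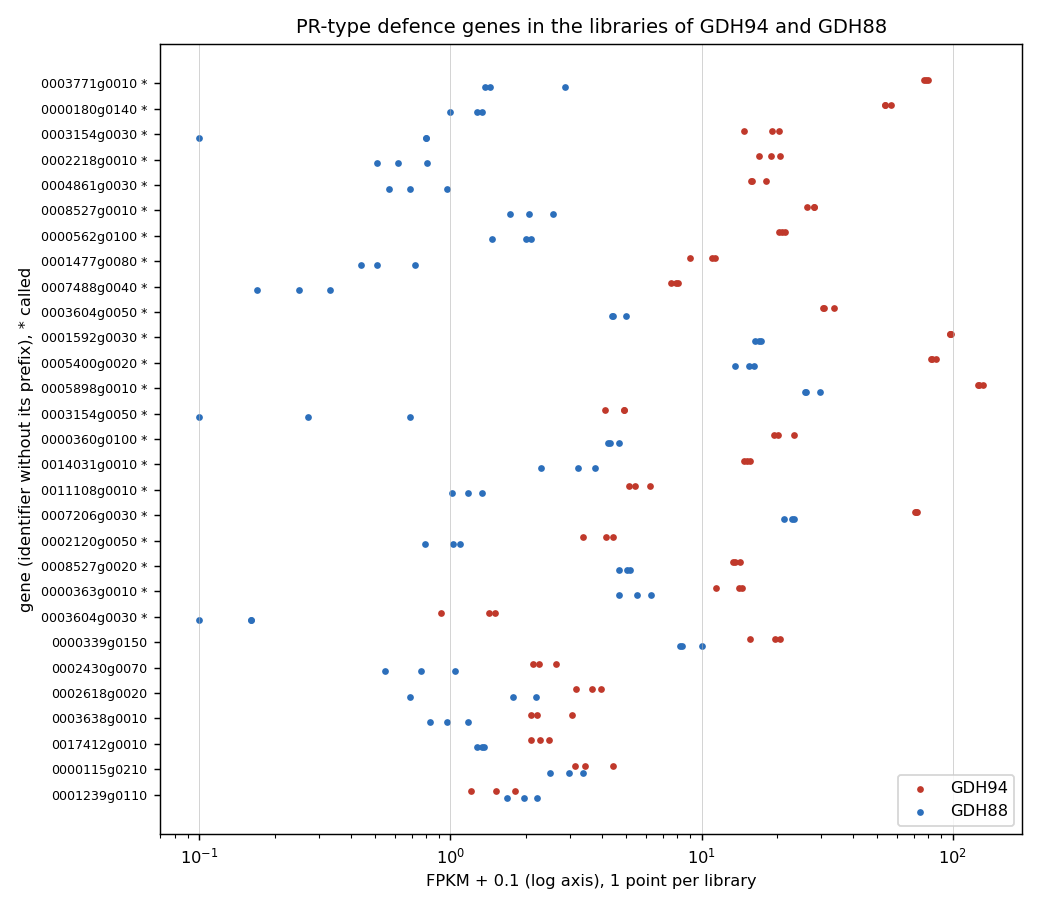
FPKM + 0.1 of the 29 tested PR-type defence genes is shown on a log axis, with 1 point per library, red for GDH94 and blue for GDH88, and genes ordered by log2 fold change. The 22 genes with an asterisk were called, all of them higher in GDH94. Only the bottom gene has its GDH94 points to the left of most GDH88 points.

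Over all 29 genes tested, GDH94 had the highest mean of the 6 genotypes in 12, K326×GDH88, the hybrid of the low line, also in 12, and Va116×GDH94 in 5. GDH88 had the lowest mean in 12, Va116 in 14 and Va116×GDH94 in 3. The median of their mean FPKM was 15.1 in GDH94 and 1.75 in GDH88, 7.38 in Va116×GDH94 and 5.50 in K326×GDH88, and 1.32 in Va116 and 5.55 in K326. In Va116 against K326, 17 of the 29 were lower in Va116 and 0 higher. The 29 were taken from genes that the study listed as different between Va116×GDH94 and Va116. The places of Va116 and its hybrid among the genotypes therefore follow in part from the choice. In the hybrids the group was split: 9 were higher and 8 lower in Va116×GDH94 than in K326×GDH88. The leading CAP gene and the leading β-glucanase went opposite ways there. Nitab4.5_0003771g0010 had 12.6, 8.69 and 5.78 FPKM in Va116×GDH94 and 633, 531 and 168 FPKM in K326×GDH88, above all GDH94 libraries. Nitab4.5_0000180g0140 had 62.1, 34.0 and 31.8 FPKM in Va116×GDH94 and 4.29, 3.37 and 3.67 FPKM in K326×GDH88. The K326×GDH88 hybrid of the low line thus had more transcript of this CAP gene than either line, while that of the β-glucanase was low.

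Genes of signalling and of the oxidative response were called mostly in the same direction. Of 26 WRKY transcription factors tested, 7 (26.9%) were higher in GDH94 and 0 lower, with a median log2 fold change of 0.58. Of all tested genes on the list of the hybrid against Va116, 11.8% were higher and 6.88% lower. Nitab4.5_0002758g0040 had 54.7, 53.4 and 54.1 FPKM in GDH94 and 10.8, 10.6 and 9.25 FPKM in GDH88, a log2 fold change of 2.30 ± 0.058 (SE, with an adjusted p of 2.75e-07 in limma). Nitab4.5_0000381g0130 had 51.9, 52.6 and 49.2 FPKM in GDH94 and 11.3, 11.4 and 12.2 FPKM in GDH88. In Va116 the means of these WRKY genes were 11.0 and 12.5 FPKM, near those of GDH88, and in K326 they were 40.5 and 41.8 FPKM, below those of GDH94. Of 25 AP2/ERF factors, a family that holds the ethylene response factors, 6 were higher and 1, Nitab4.5_0010294g0020, lower in GDH94. The highest of them by fold change, Nitab4.5_0010541g0010, had 11.3, 11.7 and 10.1 FPKM in GDH94 and 2.94, 4.29 and 3.15 FPKM in GDH88. No NAC, Myb or bHLH factor was called among 12, 11 and 5 tested. Without the fold limit 6 NAC, 2 Myb and 3 bHLH genes were higher and 1 NAC and 4 Myb genes lower. Of all genes tested, 32.0% were higher and 10.8% lower without that limit.

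Of 65 genes with a protein kinase domain, 9 (13.8%) were higher in GDH94 and 0 lower, a share near the 11.8% of all described genes. Their median log2 fold change was 0.49, and the count was 15 with a pseudocount of 0.5. Nitab4.5_0005928g0010, a leucine-rich repeat kinase, had 14.8, 15.1 and 15.3 FPKM in GDH94 and 3.60, 3.86 and 3.38 FPKM in GDH88. Of 20 NB-ARC genes, the family of intracellular immune receptors, 3 (15.0%) were higher and 0 lower, also near the share of 11.8%. The largest difference was in Nitab4.5_0022627g0010, with 3.35, 2.97 and 3.38 FPKM in GDH94 and 0.13, 0.08 and 0.23 FPKM in GDH88, and means of at most 0.283 FPKM in the 4 other genotypes. This receptor gene was thus at an appreciable level in GDH94 alone, the hybrid Va116×GDH94 included among the low genotypes at 0.157 FPKM.

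Of 7 plant peroxidases, which use hydrogen peroxide in wall and stress reactions, 4 (57.1%) were higher in GDH94 and 0 lower. This count was 2 after median-ratio scaling and after quantile normalization. Nitab4.5_0008304g0020 had 6.86, 8.49 and 7.21 FPKM in GDH94 and 0.79, 0.42 and 0.25 FPKM in GDH88. Nitab4.5_0000099g0090 was more abundant, with 34.4, 33.1 and 33.6 FPKM in GDH94 and 9.43, 10.7 and 10.4 FPKM in GDH88. Of 6 glutathione S-transferases, enzymes that couple toxic compounds to glutathione, 2 (33.3%) were higher. Of 28 cytochrome P450 genes, a family of oxidases, 3 were higher (1 after quantile normalization and 7 with a pseudocount of 0.5). This share of 10.7% was no larger than the 11.8% of all tested genes on the list of the hybrid against Va116.

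The higher DEG with the largest fold change of all was not on any of these lists. Nitab4.5_0000907g0080, a polyphenol oxidase, had 158, 159.97 and 156 FPKM in GDH94, against 4.37, 4.17 and 4.45 FPKM in GDH88. The ratio of the means was 36.5 and the log2 fold change 4.90 ± 0.037 (SE, with an adjusted p of 3.44e-09 in limma). Both cultivars lay between the lines, with means of 63.1 FPKM in Va116 and 72.7 FPKM in K326, and so did the hybrids, with 24.5 FPKM in Va116×GDH94 and 27.2 FPKM in K326×GDH88. Between the hybrids the log2 fold change of this gene was −0.18 and did not pass the test (limma adjusted p = 0.71).

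Other described genes that were far higher in GDH94 had various roles. A plastocyanin-like copper protein, Nitab4.5_0003374g0040, had 15.4 to 17.1 FPKM in GDH94 and 0.51 to 0.98 FPKM in GDH88. A class I aminotransferase, Nitab4.5_0000302g0060, described as a diaminopimelate aminotransferase of lysine synthesis, had 41.3, 41.2 and 40.8 FPKM in GDH94 and 2.78, 2.14 and 2.96 FPKM in GDH88. This gene was nearly absent from the hybrid of the high line, at a mean of 0.063 FPKM in Va116×GDH94 and 7.96 FPKM in K326×GDH88, although Va116 had 43.2 FPKM. A RING finger gene, Nitab4.5_0000287g0070, of the type that includes ubiquitin ligases, had 13.9, 13.3 and 14.1 FPKM in GDH94 and 0.65, 0.47 and 0.38 FPKM in GDH88. Its levels in the cultivars were 0.027 FPKM in Va116 and 11.1 FPKM in K326, and both hybrids lay between their parents. Sucrose synthase Nitab4.5_0001180g0180, an enzyme that splits sucrose for sink tissues, had 7.64, 8.05 and 7.49 FPKM in GDH94 and 1.60, 1.27 and 1.29 FPKM in GDH88. The extensin gene Nitab4.5_0000032g0470, for a structural wall protein, had 119, 125 and 117 FPKM in GDH94 and 37.0, 36.2 and 34.6 FPKM in GDH88. It was the most abundant of the 4 cell wall genes called higher among 20 tested, beside 1 lower.

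Genes described as ornithine decarboxylases, berberine-bridge-type enzymes or MATE transporters were also examined, since nicotine synthesis draws on members of these families. They were matched by words of the description alone, and whether any of them acts on alkaloids was not tested. Of 6 such genes, 2 were higher in GDH94 and 0 lower. The berberine-type gene Nitab4.5_0000076g0060 had 22.4, 23.3 and 24.3 FPKM in GDH94 and 8.53, 9.20 and 8.48 FPKM in GDH88, a log2 fold change of 1.32. All GDH94 libraries lay above all GDH88 libraries in both genes. Of 4 transposase genes, which encode the enzymes that move DNA transposons, 1 was higher and 2 were lower. Nitab4.5_0000002g0110 had 0.41, 0.36 and 0.45 FPKM in GDH94 and 14.6, 15.0 and 14.3 FPKM in GDH88, and was equally low in the cultivars, at means of 0.327 FPKM in Va116 and 0.343 FPKM in K326. Yet Va116×GDH94 had 15.8 FPKM and K326×GDH88 6.12 FPKM, so that transcript was found in a hybrid of low parents.

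**Figure D3:**
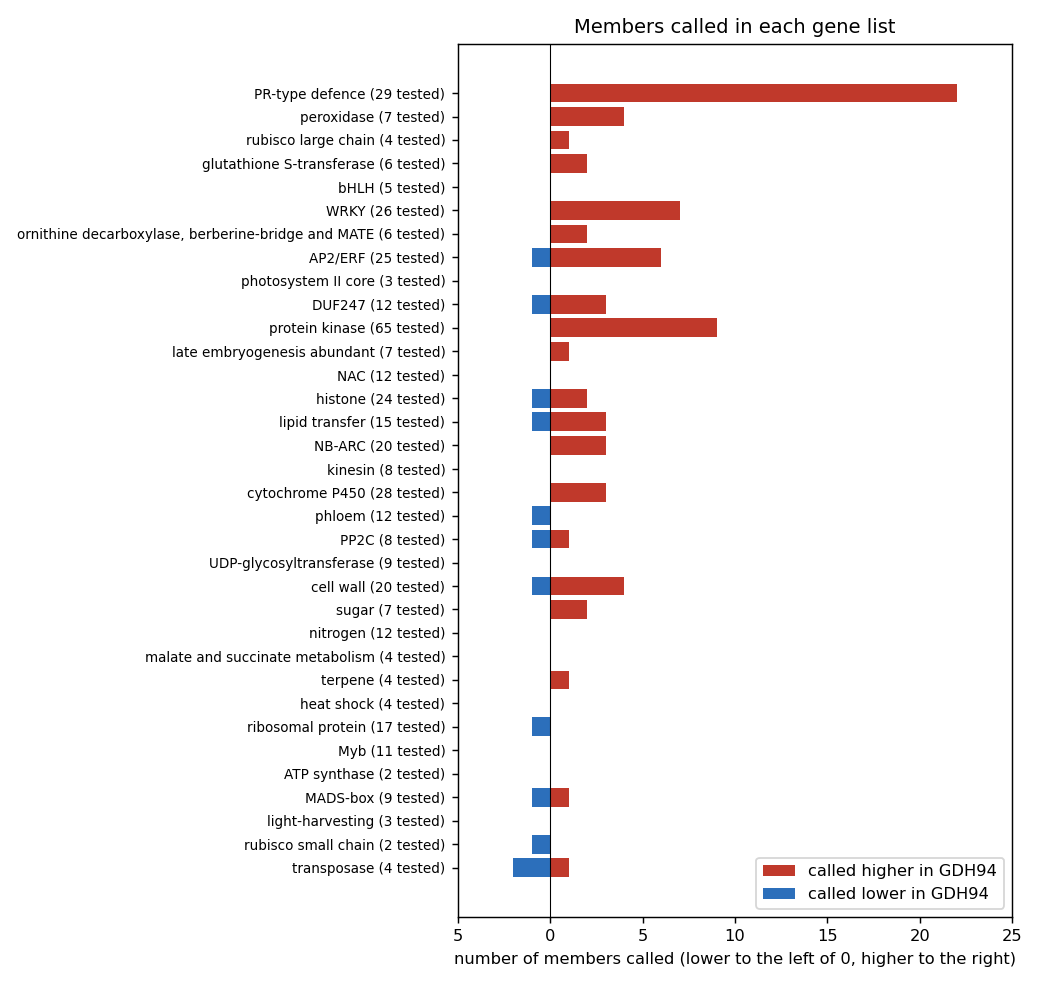
The number of members called in each of 34 gene lists is plotted, with lower DEGs to the left of 0 in blue and higher DEGs to the right in red, and lists ordered from the highest median log2 fold change at the top. The PR-type list stands out with 22 of 29 members called. In 12 lists there were only higher, in 3 only lower and in 8 both higher and lower members, and in 11 none was called.

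The light-harvesting and carbon-fixing genes, which mark leaf mesophyll, were present in both lines. The light-harvesting genes tested and the described rubisco small subunit genes all had negative log2 fold changes. Those of the described rubisco large subunit genes, which were at low levels, were positive. The study designed quantitative PCR primers for 10 genes, 9 of which were tested here. The primers of the pair of antenna genes that bind chlorophyll in photosystem II are shown because the study followed these genes with them. Whether they also match close copies was not tested. They are printed 5′ to 3′ as designed.

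NtLhcb2 forward: tctccgagcaaactccatc

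NtLhcb2 reverse: gcctccgccaactctgtat

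NtLhcb1 forward: tgggacactgctggacttt

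NtLhcb1 reverse: gcaacacggtaaccctcaa

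NtLhcb2 (Nitab4.5_0005511g0010) had 29.3, 25.6 and 27.8 FPKM in GDH94, against 62.4, 58.3 and 59.3 FPKM in GDH88, and the 3 values of GDH94 lay below all of GDH88. This was the only DEG among the 9. It was lower in GDH94 by a log2 fold change of −1.10 ± 0.054 (SE, with an adjusted p of 6.65e-06 in limma). NtLhcb1 (Nitab4.5_0002814g0050) had 9.55, 12 and 11.1 FPKM in GDH94 and 17.7, 15.9 and 16.3 FPKM in GDH88, a log2 fold change of −0.57 (limma adjusted p = 0.0014) below the fold limit. Libraries of the lines did not overlap in either antenna gene. Between the hybrids NtLhcb2 had a log2 fold change of 0.07 that did not pass the test (81.6 FPKM in Va116×GDH94 and 77.4 FPKM in K326×GDH88), while NtLhcb1 had 72.4 FPKM in Va116×GDH94 and 17.8 FPKM in K326×GDH88. Of 4 light-harvesting genes with a description 3 were tested, of which 2 were lower at an adjusted p under 0.05 and 0 reached the fold limit.

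The 2 described genes for the small subunit of rubisco, the enzyme that fixes CO2, were far more abundant and also had less transcript in GDH94. The difference of 1 of the 2 was past the fold limit. Small subunit genes without a description were not searched for, so the total of the family is not known here. Nitab4.5_0002207g0050 had 2601, 1482 and 2770 FPKM in GDH94, against 10605, 11294 and 12679 FPKM in GDH88, a log2 fold change of −2.38 ± 0.22 (SE, with an adjusted p of 0.00015 in limma). The GDH94 libraries differed among themselves more than is usual here, but all lay far below GDH88. Its partner Nitab4.5_0001382g0020 had 9557, 9426 and 9461 FPKM in GDH94 and 14782, 15425 and 15503 FPKM in GDH88, a log2 fold change of −0.68. The first of the pair was nearly absent from Va116×GDH94, with 1.82, 12.7 and 1.27 FPKM, and had 23870, 17721 and 25808 FPKM in K326×GDH88. In the cultivars it had a mean of 1508 FPKM in Va116 and 11417 FPKM in K326. In this gene the order of the lines was thus also the order of the hybrids and of the cultivars.

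Genes described as the large subunit of rubisco, which is encoded in the plastid, went the other way at low levels. NtrbcL (Nitab4.5_0000841g0020) had 4.26, 5.48 and 5.54 FPKM in GDH94 and 3.18, 1.07 and 2.41 FPKM in GDH88, a log2 fold change of 0.97 (limma adjusted p = 0.015). Of the 4 tested, all were higher at an adjusted p under 0.05, with log2 fold changes of 0.64 to 1.01, and Nitab4.5_0000007g0300 reached the fold limit. The count past the limit was 0 after median-ratio scaling and after quantile normalization, 2 without GDH88 replicate 1, 0 without GDH88 replicate 2, 3 without GDH88 replicate 3, 2 without GDH94 replicate 1 and 0 without GDH94 replicate 2. NtPsb (Nitab4.5_0003961g0020), a photosystem II reaction centre gene, had 4.98, 10.8 and 6.88 FPKM in GDH94 and 4.03, 2.80 and 4.82 FPKM in GDH88. NtPsbA (Nitab4.5_0008665g0010) was below the filter, at 1.03, 0.78 and 0.86 FPKM in GDH94 and 0.43, 0.58 and 0.44 FPKM in GDH88.

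The remaining primer genes did not reach the fold limit. NtSDHB (Nitab4.5_0002158g0230), a subunit of succinate dehydrogenase, had 5.65, 6.39 and 5.36 FPKM in GDH94 and 4.26, 4.21 and 4.19 FPKM in GDH88. Its libraries did not overlap between the lines, and its log2 fold change was 0.38 (limma adjusted p = 0.0046). The log2 fold change was −0.27 for NtatpF (Nitab4.5_0003634g0020, standard error 0.18), 0.06 for NtMDH1 (Nitab4.5_0000044g0330, standard error 0.023) and 0.00 for NtOGDH (Nitab4.5_0009327g0010, standard error 0.047). The reference gene of the PCR, NtLR25 (Nitab4.5_0002995g0050), had 150.3, 158 and 149 FPKM in GDH94 and 148, 144 and 152 FPKM in GDH88, a log2 fold change of 0.04 with overlapping libraries. The small differences of NtMDH1 and NtLR25 changed sign after median-ratio scaling, to −0.08 (limma adjusted p = 0.034) and −0.10 (limma adjusted p = 0.048).

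Lists that mark other tissue parts were also checked. Of 12 genes of the phloem list 1 was lower in GDH94 and 0 higher, and the summed FPKM was 395.5 to 401 in GDH94 and 364 to 383 in GDH88. Of 8 kinesins, motor proteins of dividing and growing cells, 0 passed the fold limit. At an adjusted p under 0.05 alone 7 were higher, where 32.0% of all genes tested were higher and 10.8% lower. The summed FPKM of the kinesins was 14.6 to 15.5 in GDH94 and 8.80 to 9.64 in GDH88. Of 24 histone genes, 2 were higher (the H2A gene Nitab4.5_0001651g0150 and the H3 gene Nitab4.5_0000140g0010) and 1 lower (the H2B gene Nitab4.5_0027235g0010), and 17 were higher at an adjusted p under 0.05. Summed histone FPKM was 1475 to 1479 in GDH94 and 1142 to 1185 in GDH88. After median-ratio scaling 1 histone gene was higher and 2 were lower. In mixed leaf tissue fewer cells of a type and less RNA per cell cannot be told apart, and the part of these lists in the other results was not tested.

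The genes with the largest decrease in GDH94 were mostly at or near 0 there and well expressed in GDH88. Nitab4.5_0000767g0010, a phloem protein 2-like gene of the lectin type found in sieve elements, had 0.28, 0.21 and 0.48 FPKM in GDH94, against 102, 110.3 and 95.8 FPKM in GDH88. The libraries of the lines lay far apart, and the log2 fold change was −6.29 ± 0.088 (SE, with an adjusted p of 2.74e-08 in limma). Va116 (99.8 FPKM) and K326 (97.7 FPKM) were at the level of GDH88. The hybrid Va116×GDH94 had 0.60, 0.61 and 0.47 FPKM, the level of its GDH parent, and K326×GDH88 had 104, 129 and 99.98 FPKM.

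The K-box gene Nitab4.5_0003356g0020, of a domain found in MADS-type transcription factors, behaved alike. It was listed at 0 in all GDH94 libraries and had 43.8, 35.8 and 40.7 FPKM in GDH88. It was listed at 0 in all Va116×GDH94 libraries too, though Va116 had a mean of 37.9 FPKM, and had 34.2 FPKM in K326×GDH88. The same held for a ribosomal protein L30 gene, Nitab4.5_0000138g0020, with 19.7, 18.7 and 20.8 FPKM in GDH88, and for a calmodulin binding protein-like gene, Nitab4.5_0005936g0010, with 17.5, 18.1 and 18.4 FPKM in GDH88. Both were listed at 0 in all libraries of GDH94 and of Va116×GDH94. The described genes named here for their decrease come from the study's lists, mostly that of the hybrid against Va116. How far Va116×GDH94 lay from Va116 in them therefore follows in part from the choice.

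A histone H2B gene, Nitab4.5_0027235g0010, showed another pattern. It was listed at 0 in GDH94 and had 57.3, 55.1 and 52.1 FPKM in GDH88, but its mean was 24.1 FPKM in Va116×GDH94 and 53.7 FPKM in Va116. Nitab4.5_0001751g0060, a nonaspanin of the membrane traffic system, and Nitab4.5_0002587g0020, a peptide chain release factor that ends translation, were likewise at 0 in GDH94 and at means of 7.74 and 7.56 FPKM in the hybrid, against 16.1 and 16.6 FPKM in Va116. Nitab4.5_0000068g0480, an RNA recognition motif gene, had 0.65, 0.71 and 0.77 FPKM in GDH94 and 26.4, 26.9 and 27.4 FPKM in GDH88, and the hybrid Va116×GDH94 had 39.0 FPKM, above Va116 at 30.7 FPKM. Nitab4.5_0005779g0010, a family 35 glycoside hydrolase of the β-galactosidase type, had 0.15, 0.13 and 0.31 FPKM in GDH94 and 15.7, 15.2 and 16.5 FPKM in GDH88. It was equally low in Va116, at 0.14 FPKM, and yet the hybrid of these low parents had 11.99 FPKM.

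In all, 54 genes were listed at 0 in every GDH94 library and at 1 FPKM or more in every GDH88 library, and 16 genes were at 0 in every GDH88 library and at 1 FPKM or more in every GDH94 library. The same rule gave 25 genes at 0 in Va116 and 14 at 0 in K326 between the cultivars. A value of 0 in a table of FPKM says only that the gene is listed at 0. The 16 became 30 without GDH94 replicate 2, 29 without GDH94 replicate 3, 25 without GDH88 replicate 1, 28 without GDH88 replicate 2 and 29 without GDH88 replicate 3, since fewer libraries then had to meet the limits, and the 54 became 59 to 62 with a library left out. At 5 FPKM or more, 27 genes were at 0 in GDH94 and 1 gene was at 0 in GDH88.

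Of the 54 genes at 0 in GDH94, 47 had a mean of 1 FPKM or more in Va116 and 43 had this in both cultivars, so most of them were expressed in the cultivars. The hybrid Va116×GDH94 gave these 47 genes a median ratio of 0.799 to its Va116 parent. The ratio was under 0.1 in 10 genes and ran without a clear break from 0.296 to 2.21 in the others, with 11 of these under 0.75 and 26 at 0.75 or more. Among those at or above the level of Va116 were Nitab4.5_0010112g0010, with 26.2 FPKM in GDH88, 36.3 FPKM in Va116×GDH94 and 19.4 FPKM in Va116, and Nitab4.5_0007795g0020, with 21.9 FPKM in GDH88, 20.2 FPKM in Va116×GDH94 and 19.2 FPKM in Va116. Neither has a description.

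**Figure D4:**
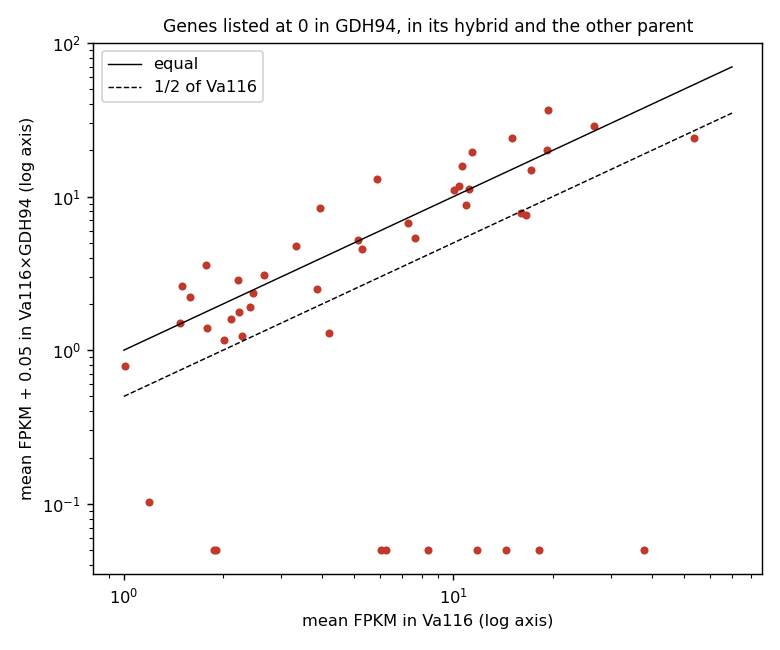
For the 47 genes that were listed at 0 in GDH94, at 1 FPKM or more in every GDH88 library and at a mean of 1 FPKM or more in Va116, the mean FPKM + 0.05 in Va116×GDH94 is plotted against the mean FPKM in Va116, both on log axes. The solid line marks equal levels. The 10 points at the bottom are genes with a ratio under 0.1, and 26 genes have a ratio of 0.75 or more.

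The 16 genes listed at 0 in GDH88 were rarer in the rest of the series. A mean under 0.1 FPKM in both cultivars was found for 8 of them, and all 5 other genotypes were under 0.1 FPKM in 8. The highest was Nitab4.5_0002403g0020, with 17.9, 26.7 and 18.4 FPKM in GDH94 and 0 in all 15 other libraries, the 3 of Va116×GDH94 included. Nitab4.5_0006891g0010, an OB-fold nucleic acid-binding gene with a DUF223 domain, is not among the 16 but was nearly as restricted, with 12.04, 11.8 and 11.6 FPKM in GDH94, 0.05, 0.02 and 0.02 FPKM in GDH88, 0.17, 0.07 and 0.09 FPKM in Va116×GDH94 and 0 in the libraries of K326×GDH88, Va116 and K326. Other genes of the 16 were found in the hybrid. Nitab4.5_0000686g0180 had a mean of 4.66 FPKM in GDH94, 0 in Va116, and 3.29, 0.0 and 4.12 FPKM in the Va116×GDH94 libraries. Nitab4.5_0006241g0050 had means of 2.01 FPKM in GDH94, 0.34 FPKM in Va116 and 0.997 FPKM in Va116×GDH94. Nitab4.5_0004516g0010 had means of 1.76 FPKM in GDH94, 1.11 FPKM in Va116 and 0.877 FPKM in Va116×GDH94, below both parents.

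Some DEGs were concentrated in genes that share the number before the letter g of their identifier. Of 730 such numbers with at least 10 genes tested, 540 held no DEG, and in 8 numbers at least 25% of the genes were called. The files give no coordinates, and no genome of the identifiers was used here, so the position of these genes was not analysed. The median log2 fold change of a number ran from −0.16 to 0.36 between the 1st and the 99th percentile of the 730.

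The lowest medians were those of the numbers Nitab4.5_0001526 and Nitab4.5_0001198. Of the 25 genes of Nitab4.5_0001198, 17 (68.0%) were lower in GDH94 and 0 higher, with a median log2 fold change of −1.45. The GDH94 libraries lay all below the GDH88 libraries in 24 of them, beside 13.8% of all genes tested. Nitab4.5_0001198g0120 had 3.99, 4.84 and 3.97 FPKM in GDH94, against 149, 149 and 139 FPKM in GDH88, a log2 fold change of −4.80. Nitab4.5_0001198g0330 had means of 31.2 FPKM in GDH94 and 80.8 FPKM in GDH88, so transcripts from this number were not all near 0. Of the 12 genes of Nitab4.5_0001526, 9 were lower and 0 higher, with a median of −1.48. The GDH94 libraries lay all below the GDH88 libraries in 11, and all above in Nitab4.5_0001526g0080, with 4.76, 4.16 and 4.61 FPKM in GDH94 and 3.66, 3.90 and 3.83 FPKM in GDH88. The same genes had a median log2 fold change of 0.31 for Nitab4.5_0001526 and 0.10 for Nitab4.5_0001198 in Va116×GDH94 over K326×GDH88, and −0.02 and −0.06 in Va116 over K326. By these medians the genes of both numbers were low in GDH94 and not in its hybrid or in Va116.

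In other numbers nearly all genes had a positive log2 fold change. Of the 22 genes of Nitab4.5_0000201, 9 (40.9%) were called higher and 0 lower, and the median log2 fold change was 0.96. In 21 of the 22 all GDH94 libraries lay above all GDH88 libraries, beside 40.8% of all genes tested. For example, Nitab4.5_0000201g0200 had means of 35.9 FPKM in GDH94 and 11.6 FPKM in GDH88, and Nitab4.5_0000201g0310 38.1 FPKM in GDH94 and 13.4 FPKM in GDH88. Of the 12 genes of Nitab4.5_0001650, 5 (41.7%) were called higher, all 12 had a positive log2 fold change, and the median was 0.93. Nitab4.5_0001650g0160, the most abundant there, had means of 219 FPKM in GDH94 and 102 FPKM in GDH88. Of the 11 genes of Nitab4.5_0001049, 4 were higher, with a median of 0.80, and these included Nitab4.5_0001049g0180 with 112 FPKM in GDH94 and 6.44 FPKM in GDH88. In Nitab4.5_0000201 and Nitab4.5_0001650 many genes lay close to the fold limit of 1, so their counts of 9 and 5 became 7 and 4 after median-ratio scaling.

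**Figure D5:**
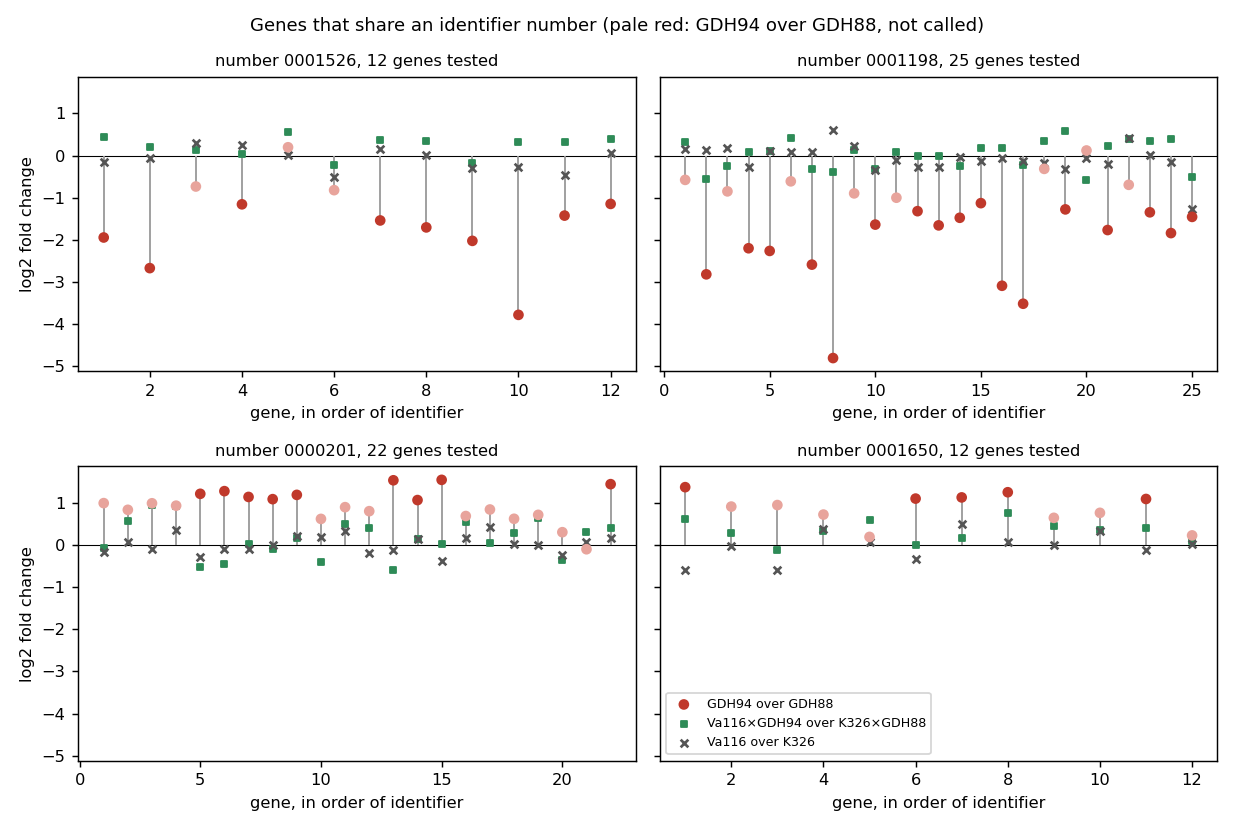
The log2 fold change is plotted for each tested gene of 4 identifier numbers, in order of identifier. Red circles are GDH94 over GDH88 (dark when called), green squares Va116×GDH94 over K326×GDH88, and grey crosses Va116 over K326. The red circles lie below 0 in 24 of 25 genes of Nitab4.5_0001198 and above 0 in all 12 genes of Nitab4.5_0001650, while the medians of squares and crosses lie between −0.06 and 0.34.

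When numbers with at least 5 genes were taken, an alternative added after the data were seen, 10 of 2263 numbers had a median log2 fold change of −0.8 or less in GDH94 over GDH88 and 5 had one of 0.8 or more. The 10 low numbers held 94 genes tested, of which 66 were lower and 2 higher DEGs, and the 5 high numbers held 53, of which 24 were higher and 0 lower. Over all genes tested, 1.07% were lower and 1.71% higher. The numbers were chosen by the same fold changes, so many DEGs in them follow from the choice. The lowest were Nitab4.5_0002587, with a median of −2.83 and 6 of 7 genes lower, and Nitab4.5_0006562, with a median of −2.71 and all 6 genes lower. Number Nitab4.5_0003626, with 7 of 8 genes lower, holds the undescribed DEG with the largest decrease, Nitab4.5_0003626g0010, at 4.31, 4.92 and 6.79 FPKM in GDH94 and 458, 457 and 466 FPKM in GDH88. In Va116×GDH94 over K326×GDH88, 0 numbers had a median of −0.8 or less and 1 had 0.8 or more, and in Va116 over K326 the counts were 5 and 1. The release factor and the nonaspanin gene above belong to the low numbers Nitab4.5_0002587 and Nitab4.5_0001751.

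The called genes of the remaining leading numbers stood beside genes that were not called. In Nitab4.5_0000138, the first 4 genes tested were lower in GDH94 and the other 10 were not called. The ribosomal L30 gene is among the 4, and the 4 had means of 0 to 1.26 FPKM in Va116×GDH94 and 2.21 to 24.3 FPKM in K326×GDH88. In Nitab4.5_0000309, 4 of 14 genes were lower in GDH94, interspersed with genes that were not called, among them Nitab4.5_0000309g0240 with 0.08 FPKM in GDH94 and 12.1 FPKM in GDH88, but its mean in Va116×GDH94 was 17.5 FPKM. In Nitab4.5_0002114, 3 of 11 genes were higher in GDH94, also interspersed. The lower genes named from Nitab4.5_0000138 and Nitab4.5_0000309 thus differed in their level in the hybrid of GDH94.

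How much of the difference between the lines was found between their hybrids was counted in the hybrid libraries, none of which is shared with the lines. Between Va116×GDH94 and K326×GDH88 904 genes (2.54%) passed the same limits, 442 (1.24%) as higher and 462 (1.3%) as lower in Va116×GDH94. Of the 609 genes higher in GDH94, 67 (11.0%) were also higher and 32 (5.25%) lower in Va116×GDH94, which means that 67 is 15.2% of the 442. Of the 379 genes lower in GDH94, 91 (24%) were also lower and 19 (5.01%) higher in Va116×GDH94, and 91 is 19.7% of the 462. Differences between the hybrids under the fold limit are not in these counts. The median log2 fold change of Va116×GDH94 over K326×GDH88 was 0.13 in the 609 genes and −0.15 in the 379. Over all genes tested it was 0.18, so as a group the 609 were not shifted upward between the hybrids. The hybrids had another parent each that also differed, by 820 DEGs (2.31%) in Va116 against K326, with 251 (0.706%) higher and 569 (1.6%) lower ones.

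Of the 609 genes higher in GDH94, 26 (4.27%) were higher and 100 (16.4%) lower in Va116 than in K326, so the cultivars went the opposite way more often than the same way. Of the 379 genes lower in GDH94, 30 (7.92%) were higher and 36 (9.5%) lower in Va116. The difference of the lines minus that of the cultivars, tested over the 12 parent libraries, passed the limits in 2607 genes (7.33%), 1906 of them positive (5.36%) and 701 negative (1.97%). Among the genes named above, this test gave 7.57 for the CAP gene Nitab4.5_0003771g0010 (limma adjusted p = 1.13e-05), 5.04 for the polyphenol oxidase Nitab4.5_0000907g0080 (limma adjusted p = 1.54e-08) and −6.33 for the phloem protein 2-like gene Nitab4.5_0000767g0010 (limma adjusted p = 6.12e-12), all on the log2 scale. It gave −0.36 for the glycoside hydrolase Nitab4.5_0005779g0010 (limma adjusted p = 0.027), which was low in Va116 as well. These genes were picked for their difference between the lines, and the test uses the same GDH libraries. Its values are thus no independent check of that difference. In K326 the CAP gene varied widely, with 4.57, 9.68 and 47.8 FPKM.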

How the data were processed

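Leaf RNA was made into TruSeq libraries and sequenced as paired reads. The authors aligned the reads to the K326 genome with HISAT2 and estimated expression with RSEM, StringTie is also named in the submitters' processing notes, and versions are not given in the sources used here. The deposited table holds FPKM for 69500 genes and 18 libraries, to 2 decimals. FPKM are not counts, and the unit was inferred from the methods and values, since the header does not name it. All columns belong to a labelled library. Of the identifiers, 0 matched the RefSeq table. Descriptions (2031 genes) and primers came from the study's supplementary sheets, as text only, and 1 of these sheets was held only in part.

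Genes with a mean of 1 FPKM or more in either line were tested on log2(FPKM + 1) with limma 3.58.1 in R 4.3.3 (lmFit and eBayes with a trend, two-sided, 6 libraries, no covariate), adjusted over all genes tested. The pseudocount of 1 makes fold changes of low genes smaller than the ratio of their FPKM. Hybrids and cultivars were fitted likewise, and the difference of differences over 12 parent libraries. An exact permutation test of 3 against 3 libraries cannot go below p = 0.1 and was not used. No pair of libraries was identical. Alternatives were other pseudocounts, filters and fold limits, 3 other scalings, a replicate block, wider fits and leaving out each replicate. The procedure was tested on simulated data. Relative depth was the ratio of the lowest values above 0 in genes listed at 0 in at least 7 libraries. Summaries were made with Python 3.11.15, NumPy 2.4.6 and pandas 2.3.3.

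The members, the 34 gene lists (matched by words of the descriptions) and the rule for named genes were chosen with earlier results of these data known. Named were the 10 primer genes, the 10 described and 2 undescribed DEGs of largest change in each direction with non-overlapping libraries, up to 3 DEGs of each list, genes of the leading identifier numbers, and up to 5 genes at 0 in each line. Other genes named, such as list members that did not pass, were chosen after their values were seen.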

Additional observations from a re-analysis of the deposited data

How the results depend on the processing

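The counts of DEGs moved most with the limits and the treatment of low values. With a pseudocount of 0.1 there were 1729 DEGs (1157 higher and 572 lower in GDH94), and 17 identifier numbers with at least 25% of their genes called in place of 8 (15 with a pseudocount of 0.5). With a mean of at least 5 FPKM there were 620 DEGs, 366 of them higher. With a log2 fold limit of 2 there were 212 DEGs (84 higher and 128 lower) and 3 such numbers, and with adjusted p alone 15215 (11362 higher and 3853 lower) and 663. Numbers with 5 or more genes, added after the data were seen, gave 41. With a replicate left out there were 1004 to 1030 DEGs, 612 to 635 of them higher and 382 to 403 lower, with 8 to 11 such numbers. A pseudocount of 0.1 gave 1689 DEGs between the hybrids and 1487 between the cultivars. The genes at 0 in GDH94 numbered 27 at a limit of 5 FPKM. Those at 0 in GDH88 numbered 1 at 5 FPKM, 30 at 0.5 FPKM, 25 with values under 0.1 FPKM taken as 0 (added after the data were seen) and 23 to 30 with a replicate left out, and those at 0 in GDH94 then 59 to 62. Of 103 named DEGs, 90 kept their call in every setting other than the fold limit of 2, and 7 lost it with a replicate left out. All named DEGs kept their direction. NtOGDH (Nitab4.5_0009327g0010), at 0.00, was −0.12 after median-ratio scaling, −0.13 after quantile normalization, and −0.0137 to 0.0248 with a replicate left out, negative without GDH88 replicate 2 (−0.0137), GDH94 replicate 1 (−0.0057) or GDH94 replicate 2 (−0.0111). NtMDH1 (Nitab4.5_0000044g0330) and NtLR25 (Nitab4.5_0002995g0050) were −0.0767 and −0.0977 after median-ratio scaling. Replicate numbers did not pair the samples: the correlations of deviations of the same numbers were −0.03, −0.03 and −0.01. A fit with the replicate block gave 990 DEGs, 980 of them in common with the fit without it. The cause of these shifts was not tested, and low genes, whose depth is unknown, are the least certain.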
